A study of Homo sapiens with 6 samples.

Results

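Fibroblast growth factors (FGFs) are secreted ligands that bind the receptor tyrosine kinases FGFR1 to FGFR4 and, through adaptor proteins, switch on the RAS-ERK cascade. FGF19 is the endocrine member of the family in this set. It signals to liver cells through FGFR4 with the co-receptor beta-Klotho, encoded by KLB, and its best known effect there is to restrain bile acid synthesis. MET is the receptor of hepatocyte growth factor, encoded by HGF, which is secreted as an inactive chain and has to be cut by serine proteases before it can activate MET. Both systems are known growth drivers in hepatocellular carcinoma.

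The genes described here are the 4 receptors FGFR1, FGFR2, FGFR3 and FGFR4, the co-receptor KLB, the ligands FGF1, FGF2 and FGF19, and the pair MET and HGF. They were chosen by name, and 10 of 10 were present among the 35856 genes of the deposited table. HCCLM3, an established human hepatocellular carcinoma cell line, had been transfected either with a vector carrying the long non-coding RNA LINC00862 (the LINC00862 group, 3 libraries) or with the vector alone (the Empty group, named NC in the labels, 3 libraries). The genotype labels name no other allele or agent. The sources used here do not say whether the RNA came from a transient transfection, a pool or a clone, nor whether the libraries came from separate cultures, so the p-values measure the spread between these libraries, which may be technical.

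Total counts lay between 58241123 and 68229070 per library. The overexpressed gene was checked first, and LINC00862 was at 0.0507 ± 0.0343 FPKM in Empty and 0.449 ± 0.120 FPKM in LINC00862 (SD, n = 3 each). These values rest on 11, 21 and 6 counts in Empty and 145, 121 and 76 in LINC00862, so its level was low in both groups. FPKM stands for fragments scaled by transcript length and by the number mapped in the library, and it can be compared between genes. Spearman correlations of FPKM over the tested genes ran from 0.969 to 0.983 within groups and from 0.719 to 0.733 between them. Of 10 hepatocyte and hepatoma markers, FGB (a fibrinogen chain) made up most of the summed level of 527 to 601 FPKM in LINC00862, while the sum was 3.02 to 3.56 FPKM in Empty. Defining liver markers were at or near 0 FPKM in both groups, with ALB (albumin) at 0.00781 and 1.51, HNF4A at 0.00237 and 0.0447, and AFP (alpha-fetoprotein) at 0.104 and 0 in Empty and LINC00862. Mesenchymal markers summed to 699 to 762 FPKM in Empty and 13.8 to 18.6 in LINC00862, with 5 of 8 lower and 1 higher. Epithelial markers summed to 199 to 292 and 491 to 564 FPKM, with 6 of 8 higher. Endothelial markers summed to 1.203 to 1.79 and 4.47 to 5.92 FPKM (1 of 5 higher), and leukocyte markers to 2.82 to 3.60 and 9.08 to 15.1 FPKM (2 of 5 higher). By the test described below, 34.4% of all tested genes were higher and 29.8% lower. The part of these markers in the results below was not tested, and in bulk RNA fewer cells of a type and less RNA per cell cannot be told apart. Whether the libraries of both groups came from the same cell line was not tested. With the lower correlation between groups and the marker levels above, an effect of the vector and a difference in the cells themselves cannot be told apart, and each fold below compares the libraries as labelled.

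Of the 10 genes, 7 fell in LINC00862, 2 rose, and MET had a positive difference whose call depended on the processing. The falls were those of FGFR1, FGFR2, FGFR3, FGFR4, KLB, FGF1 and FGF2, and the rises were those of FGF19 and HGF. The comparison was made with edgeR's quasi-likelihood test over 20741 genes, in which an adjusted p under 0.05 counted as a call. Calls were common in this comparison. Of all tested genes, 64.2% were called, 29.8% lower and 34.4% higher in LINC00862, so being called sets none of these genes apart. A fall of at least 5 on the log2 scale was seen in 2.65% of tested genes, and FGFR1, FGFR2, FGF1 and FGF2 were among them. In 9 of the 10 genes the FPKM values of the groups did not overlap, against 71.1% of all tested genes. All 7 genes that fell were among the non-overlapping ones. Over all tested genes, called or not, 36.6% did not overlap in that direction. The 7 were picked by their calls, which makes non-overlap likely, so the 2 shares are not a like comparison. Tested against a fold change of 2 (edgeR), 7 genes were lower and FGF19 and HGF higher, while 38.6% of all tested genes passed that test and MET did not. The filter on low counts asked for about 0.169 CPM (counts scaled to library size) in 3 libraries. FGFR1, FGFR3, FGFR4, FGF2 and MET met it in both groups, whereas FGFR2, KLB and FGF1 met it through the Empty libraries and FGF19 and HGF through the LINC00862 libraries, so these last 5 genes could pass only where they were high.

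**Figure D1:**
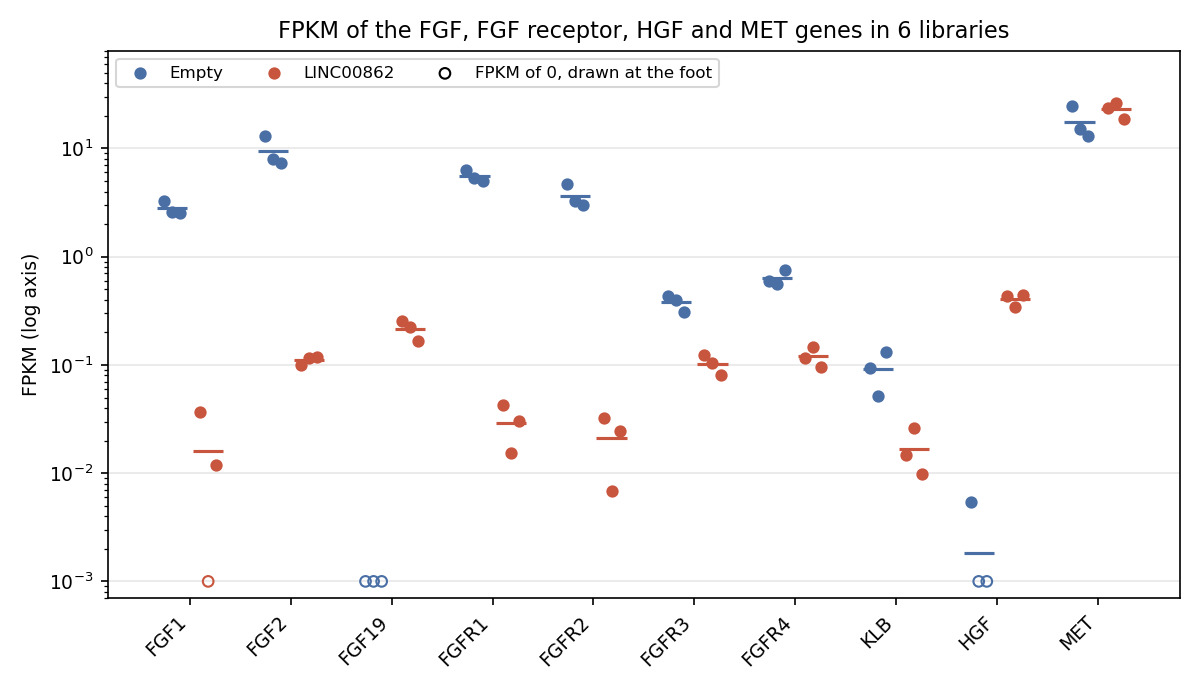
FPKM of the 10 genes in each library on a log axis, with 1 point per library, horizontal bars at the group means (n = 3), and values of 0 drawn as open circles at the foot. The Empty and LINC00862 points overlap for MET alone among these genes, while FGF19 is at 0 in the 3 Empty libraries.

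FGFR1, the receptor for FGF1, FGF2 and many other paracrine FGFs, had the highest FPKM of the 4 receptors in Empty. Its levels were 6.35, 5.32 and 5.02 FPKM in Empty replicates 1, 2 and 3, and 0.0424, 0.0155 and 0.0301 FPKM in LINC00862 replicates 1, 2 and 3. Each LINC00862 library lay far below each Empty library, and the mean FPKM was 189.6-fold lower. This gave a log2 fold change of -7.29 ± 0.33 in edgeR (SE, adjusted p = 2.57e-07). LETM2 overlaps FGFR1 on the opposite strand, and the sources used here do not say whether counting used the strand. LETM2 counts fell as well, from 721 to 856 per Empty library to 18 to 62 per LINC00862 library.

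FGFR2 encodes the receptor whose extracellular domain exists in an epithelial and a mesenchymal splice form, a choice governed by the splicing factors ESRP1 and ESRP2. The gene's level was 4.71, 3.27 and 3.00 FPKM in Empty and 0.0323, 0.00685 and 0.0246 FPKM in LINC00862. With 20, 4 and 13 counts, FGFR2 was close to the detection limit in the LINC00862 libraries. In edgeR the log2 fold change came to -7.11 ± 0.42 (SE, adjusted p = 1.08e-06). ESRP1 differed in the other direction, with 0.144 ± 0.0761 FPKM in Empty and 50.3 ± 5.05 FPKM in LINC00862 (SD, n = 3 each, log2 fold change 8.55, adjusted p = 2.91e-07, edgeR), while ESRP2 had 5.11 ± 0.278 and 5.57 ± 0.770 FPKM (log2 fold change 0.29, adjusted p = 0.105, edgeR). Counts per gene do not tell which FGFR2 splice form was present.

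FGFR3 and FGFR4 were lower in LINC00862 by a smaller factor. FGFR3 had 0.433, 0.396 and 0.310 FPKM in Empty and 0.122, 0.105 and 0.0813 FPKM in LINC00862. The groups were apart, with a 3.69-fold lower mean and a log2 fold change of -1.69 (standard error 0.34, adjusted p = 0.00203, edgeR). FGFR4, the main FGF receptor of hepatocytes, had 0.597, 0.562 and 0.757 FPKM in Empty and 0.117, 0.148 and 0.0947 FPKM in LINC00862. This gave a log2 fold change of -2.19 ± 0.32 in edgeR (SE, adjusted p = 0.000299). The 95% intervals of FGFR3 (-2.47 to -0.92) and FGFR4 (-2.92 to -1.47) did not reach those of FGFR1 (-8.03 to -6.55) and FGFR2 (-8.05 to -6.17) on the log2 scale.

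The receptors fell unequally, and the make-up of the receptor set differed between the groups. The summed FPKM of FGFR1 to FGFR4 was 10.2 ± 1.62 in Empty and 0.273 ± 0.0415 in LINC00862 (SD, n = 3 each), a 37.5-fold lower mean. In Empty, FGFR1 made up 52.5%, 55.7% and 55.3% of this sum, and in LINC00862 it made up 13.5%, 5.64% and 13.1%. FGFR2 made up 35.4% ± 3.14 in Empty and 7.82% ± 4.61 in LINC00862. FGFR3 went the other way, from 3.72% ± 0.386 to 37.4% ± 1.98, and so did FGFR4, from 6.39% ± 1.75 to 44.0% ± 8.68 (SD, n = 3 each). No share overlapped between the groups. The exact two-sided permutation test gave p = 0.1 for each of the 4 shares, the smallest p that 3 libraries against 3 can give. The 4 shares add up to the whole and are therefore not independent, and those of LINC00862 rest on few counts. These were 16 to 50 per library for FGFR1, 4 to 20 for FGFR2, 28 to 46 for FGFR3 and 34 to 48 for FGFR4.

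**Figure D2:**
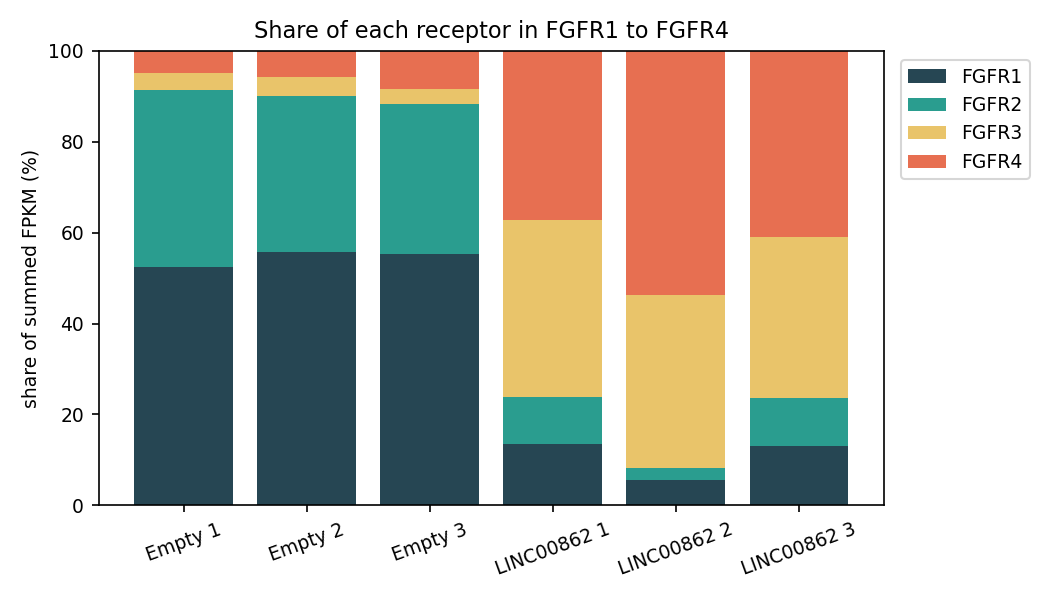
Stacked bars of the share of each receptor in the summed FPKM of FGFR1 to FGFR4 (percent, linear axis from 0), with 1 bar per library. FGFR1 and FGFR2 fill most of each Empty bar, and FGFR3 and FGFR4 fill most of each LINC00862 bar, whose underlying sum is 37.5-fold lower.

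KLB, whose product beta-Klotho lets FGFR4 bind FGF19, was low in both groups. It had 0.0942, 0.0512 and 0.131 FPKM in Empty (38, 21 and 53 counts) and 0.0147, 0.0261 and 0.00981 FPKM in LINC00862 (7, 11 and 4 counts). The groups did not overlap, but the values spread widely within each of them. In edgeR the log2 fold change came to -2.24 ± 0.61 (SE, adjusted p = 0.0102). With the replicate number as a block the adjusted p was 0.0614.

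FGF2, the basic FGF and a ligand of FGFR1 and FGFR2, was the most abundant FGF among those measured in Empty. Its levels were 13.1, 8.01 and 7.38 FPKM in Empty and 0.0995, 0.116 and 0.118 FPKM in LINC00862. The spread among the Empty libraries was small beside the distance between the groups, and the mean was 85.7-fold lower. This gave a log2 fold change of -6.21 ± 0.26 in edgeR (SE, adjusted p = 1.59e-07). NUDT6 overlaps FGF2 on the opposite strand, and its counts rose from 302 to 359 per Empty library to 672 to 894 per LINC00862 library (log2 fold change 1.32, adjusted p = 0.00029, edgeR).

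FGF1, the acidic FGF, which can bind each FGF receptor, had 3.28, 2.61 and 2.53 FPKM in Empty. In LINC00862 it had 0.0365, 0 and 0.0120 FPKM, from 14, 0 and 4 counts. In edgeR the log2 fold change came to -7.16 ± 0.65 (SE, adjusted p = 1.51e-05), and it was -8.58 without LINC00862 replicate 1, which held most of the counts in that group. Together FGF1 and FGF2 summed to 12.3 ± 3.56 FPKM in Empty and 0.127 ± 0.0105 FPKM in LINC00862 (SD, n = 3 each).

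FGF19 was listed at 0 counts in the 3 Empty libraries and had 36, 28 and 21 counts in the LINC00862 libraries, or 0.257, 0.226 and 0.165 FPKM. Against a floor of 3 counts over the Empty group, the level was at least 27.0-fold higher in LINC00862 (adjusted p = 0.000499, edgeR). The floor covers counting error only. FGF19 therefore appeared in the group in which its receptor FGFR4 and co-receptor KLB were lower, at 0.216 ± 0.0470 FPKM beside 0.120 ± 0.0266 FPKM of FGFR4 (SD, n = 3 each).

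**Figure D3:**
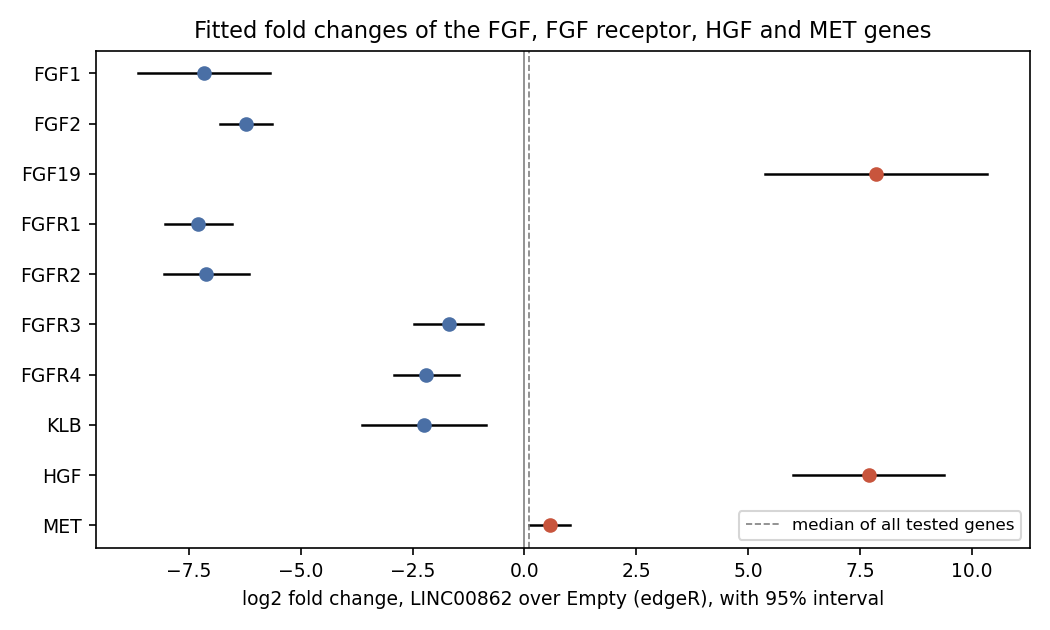
Fitted log2 fold changes (LINC00862 over Empty, edgeR) of the 10 genes with 95% intervals, and a dashed line at the median of all tested genes (0.11). The intervals of the 7 genes called lower lie below 0, and those of FGF19 and HGF lie far above it, where the fitted size depends on a prior count because Empty held 0 and 4 counts.

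To set genes that fell far beside the one whose call was unstable, the sequence before a RefSeq start (GRCh38.p14) is given for FGF2 and FGFR2, each of which fell by over 6 on the log2 scale, and for MET. Where RefSeq lists several starts, as the 5 of FGFR2, the one nearest the 5′ end of the deposited gene was taken. The bases run 5′ to 3′ on the strand of the gene and stop where the deposited gene begins, and capitals mark the GC box GGGCGG on either strand. FGF2 lies on the plus strand (chr4:122826581-122826707), FGFR2 on the minus strand (chr10:121598453-121598694) and MET on the plus strand (chr7:116671946-116672195), each window lying just upstream of the first exon.
FGF2: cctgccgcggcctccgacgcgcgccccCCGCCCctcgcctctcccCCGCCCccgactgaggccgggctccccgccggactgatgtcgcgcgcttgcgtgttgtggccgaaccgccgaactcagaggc
FGFR2: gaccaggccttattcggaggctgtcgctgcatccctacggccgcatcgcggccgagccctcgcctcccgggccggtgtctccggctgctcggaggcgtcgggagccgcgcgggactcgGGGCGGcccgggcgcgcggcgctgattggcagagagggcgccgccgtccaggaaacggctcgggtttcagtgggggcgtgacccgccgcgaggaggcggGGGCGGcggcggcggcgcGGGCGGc
MET: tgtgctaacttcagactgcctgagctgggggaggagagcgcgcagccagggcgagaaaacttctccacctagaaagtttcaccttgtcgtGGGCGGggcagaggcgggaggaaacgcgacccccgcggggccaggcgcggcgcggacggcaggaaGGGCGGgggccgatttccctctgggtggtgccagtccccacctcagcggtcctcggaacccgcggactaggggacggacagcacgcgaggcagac

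In the 250 bases before the start, FGF2, FGFR2 and MET held 75.2%, 78.4% and 68.4% G and C, against a median of 58.0% over 35116 RefSeq promoters, and each held at least 1 GC box, as 42.6% of all promoters did. FGFR3 and FGFR4 windows held 8 and 7 GC boxes, and those of KLB, FGF1 and HGF held 0, so genes that fell were found on both sides. The TATA box TATAAA and the AP-1 motif TGANTCA were in none of the 8 windows searched on both strands, against 10.7% and 6.57% of all promoters. The E-box CACCTG had 1 match each in FGFR4 and FGF1, against 17.5% of all promoters. In FGFR4, 1 pair of matches overlapped, and the HGF window lies inside the gene as deposited.

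MET, the receptor of HGF, was the most abundant of the 10 genes in both groups. It had 24.5, 15.2 and 13.1 FPKM in Empty and 23.6, 26.5 and 18.7 FPKM in LINC00862. The groups overlapped, because Empty replicate 1 lay above LINC00862 replicates 1 and 3. The means were 17.6 ± 6.03 and 22.9 ± 3.94 FPKM (SD, n = 3 each), and the log2 fold change was 0.57 (95% interval 0.11 to 1.03, adjusted p = 0.0349, edgeR). Of 13 other fits, 5 kept an adjusted p under 0.05 and 8 did not, with adjusted p from 0.00112 to 0.185. When libraries were scaled by their size only, the log2 fold change was 0.40 (adjusted p = 0.185, edgeR), and without Empty replicate 1 it was 0.82 (adjusted p = 0.00112, edgeR). Empty replicate 1 was the highest Empty library for 7 of the 10 genes and for 45.8% of all tested genes by FPKM. The ratio of MET to the summed FGF receptors was 2.02, 1.59 and 1.45 in Empty and 75.3, 96.5 and 81.1 in LINC00862 (exact two-sided permutation test of FPKM ratios, p = 0.1, the smallest possible).

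**Figure D4:**
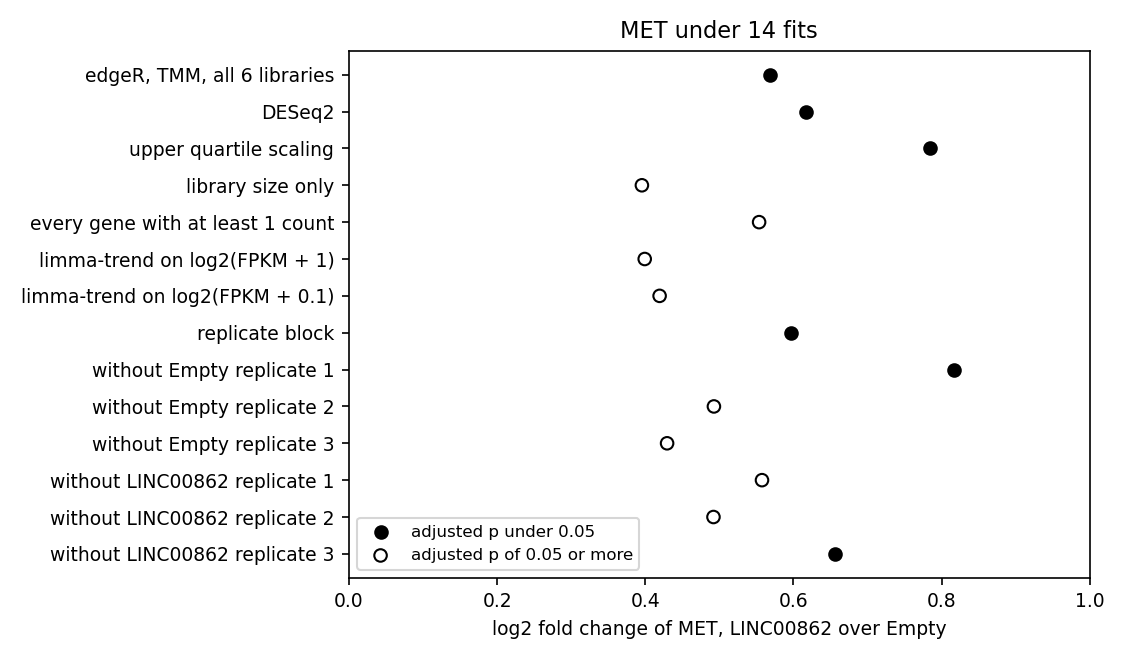
Log2 fold change of MET (LINC00862 over Empty) under edgeR with TMM and 13 other fits, filled where the adjusted p was under 0.05 and open otherwise. The values run from 0.40 to 0.82, all above 0, and 8 of the 13 other fits are open.

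HGF, the ligand of MET, had 4, 0 and 0 counts in Empty and 325, 226 and 291 counts in LINC00862. In FPKM it was 0.00545, 0 and 0 in Empty and 0.435, 0.346 and 0.442 in LINC00862. The mean was 224-fold higher, a ratio that rests on 4 counts in Empty replicate 1. This gave a log2 fold change of 7.70 ± 0.74 in edgeR (SE, adjusted p = 2.32e-05), and 11.16 without that library, when Empty held 0 counts. The HGF level in LINC00862 was well under that of its receptor, at 0.408 against 22.9 FPKM.

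The genes that process HGF or work with MET formed a list of 20. Of 19 tested, 8 rose and 8 fell, while 34.4% of all tested genes were higher and 29.8% lower. The median log2 fold change of the list was -0.245, against 0.11 for all tested genes. Among the proteases that can activate HGF, hepsin (HPN) was 0.0157 ± 0.0160 FPKM in Empty and 11.4 ± 0.589 FPKM in LINC00862 (SD, n = 3 each). Matriptase (ST14) was 0.0700 ± 0.0351 and 10.7 ± 2.51 FPKM, and TMPRSS2, named here after its values were seen because it lay under the level required of named genes, had 0 counts in Empty and was at least 134.7-fold higher. HPN and ST14 had log2 fold changes of 9.45 and 7.40 (adjusted p = 3.31e-07 and 1.91e-07, edgeR). HPN had 8, 0 and 4 counts in Empty, and without Empty replicate 1 the log2 fold change of HPN was 10.34. The urokinase gene PLAU moved the opposite way, from 67.8 ± 3.06 to 0.472 ± 0.166 FPKM (SD, n = 3 each, log2 fold change -7.00, adjusted p = 9.83e-08, edgeR). HGFAC, the HGF activator, had 18 counts in Empty and 41 in LINC00862 and was not tested.

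The cell-surface inhibitors of these proteases rose too. SPINT1 went from 0.744 ± 0.0863 to 41.1 ± 8.16 FPKM and SPINT2 from 0.966 ± 0.0649 to 99.4 ± 15.3 FPKM (SD, n = 3 each), with log2 fold changes of 5.94 and 6.84 (adjusted p = 5.58e-08 and 3.35e-08, edgeR). MST1R, the receptor closest to MET in sequence, rose from 0.665 ± 0.106 to 8.83 ± 0.614 FPKM (log2 fold change 3.89, adjusted p = 2.32e-07, edgeR). PLAUR, which encodes the urokinase receptor, fell from 15.0 ± 2.26 to 3.06 ± 0.541 FPKM, and CD44, a MET co-receptor, fell from 30.6 ± 2.60 to 2.96 ± 0.436 FPKM (SD, n = 3 each). The adaptor GAB1, which docks on MET, had 1.21 ± 0.406 and 0.883 ± 0.0989 FPKM (SD, n = 3 each) and was not called (adjusted p = 0.392, edgeR).

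**Figure D5:**
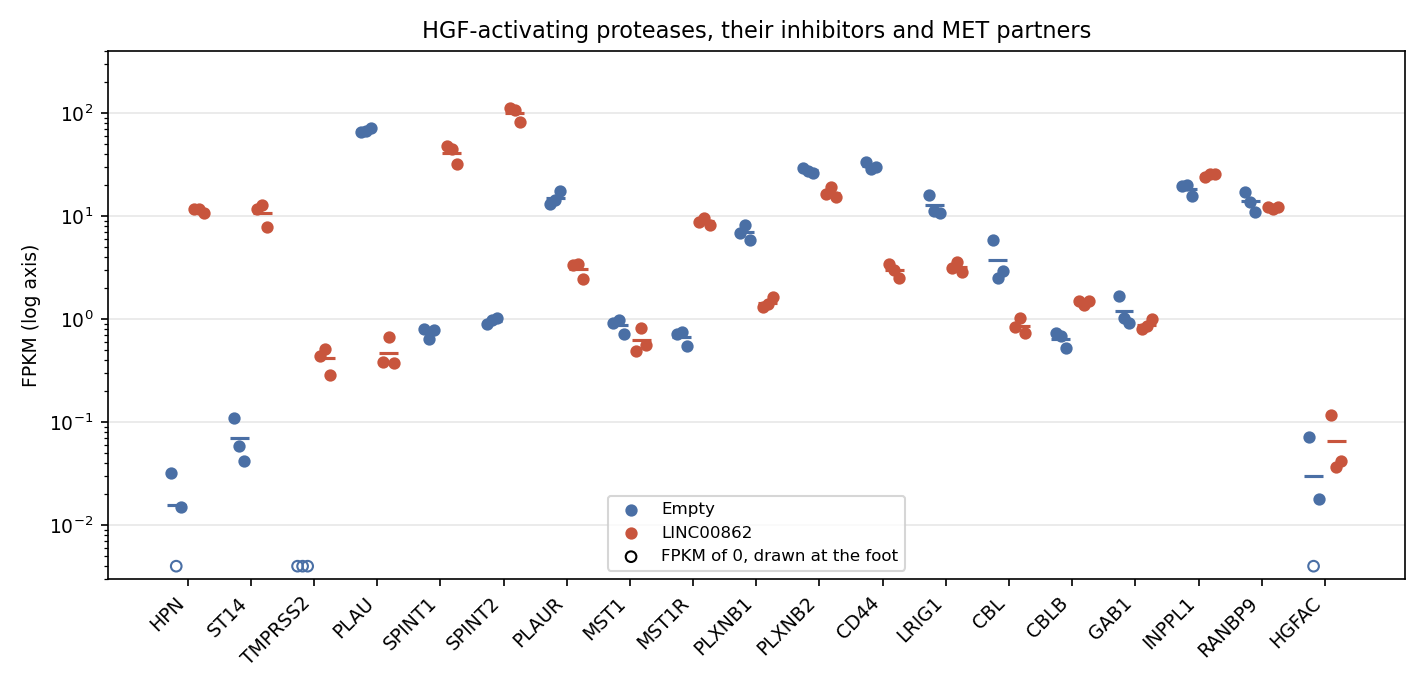
FPKM of genes that process HGF or work with MET in each library (log axis, 1 point per library, bars at group means of n = 3, open circles for 0). HPN, ST14, SPINT1 and SPINT2 reach at most 1.03 FPKM in an Empty library and at least 7.86 FPKM in each LINC00862 library, and PLAU shows the opposite pattern.

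Among 18 further FGF ligands and FGF-binding proteins, 14 were in the table and 10 were tested. Of these, 3 rose, 3 fell and 4 were not called, against 34.4% higher and 29.8% lower among all tested genes. The median log2 fold change of the list was 0.05. FGF21, an endocrine FGF of the liver that also uses KLB, had 0 counts in Empty and 1.51 ± 0.355 FPKM in LINC00862 (SD, n = 3), at least 135.9-fold higher. FGF5 fell from 2.66 ± 0.858 to 0.00859 ± 0.00797 FPKM (adjusted p = 4.01e-06, edgeR), and FGFBP1, a carrier that releases FGFs from the matrix, fell from 1.29 FPKM to 0 counts in each LINC00862 library, at least 121-fold lower. The others, named after their values were seen, were FGF9 (0 counts in Empty, at least 38.1-fold higher), FGFBP3 (0.252 and 0.699 FPKM, higher) and FGF17 (0.464 and 0.0574 FPKM, lower, adjusted p = 0.0337, edgeR). The log2 fold change of FGF17 was -2.80 and its call was lost in 5 of 13 other fits, among them those without Empty replicate 2 or 3 and without LINC00862 replicate 3, and it was -4.46 without LINC00862 replicate 1. The log2 fold change of FGF5 was -7.91, and -8.78 without LINC00862 replicate 1.

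Of 13 co-receptors and adaptors just downstream of the receptors, 12 were tested, 3 rose, 3 fell and 6 were not called. Over all tested genes, 34.4% were higher and 29.8% lower. KL, the co-receptor alpha-Klotho, had 0 counts in Empty and 6 in LINC00862 and was not tested. PLCG1, the phospholipase that docks on activated FGF receptors, fell from 13.8 ± 2.19 to 1.00 ± 0.0608 FPKM (log2 fold change -3.59, adjusted p = 2.72e-07, edgeR), and GRB2 and CBL fell by 0.96 and 1.92 on the log2 scale. GAB2 rose from 1.74 ± 0.513 to 16.1 ± 3.28 FPKM (log2 fold change 3.38, adjusted p = 1.55e-06, edgeR), SHC1 by 0.83 and the decoy receptor gene FGFRL1 by 0.43 on the log2 scale. The FGFRL1 call was lost in 8 of 13 other fits. FRS2, a docking protein of FGF receptors, had 4.39, 2.29 and 2.02 FPKM in Empty and 2.11, 2.16 and 2.21 FPKM in LINC00862 (adjusted p = 0.461, edgeR). PTPN11, which binds FRS2, was not called either (adjusted p = 0.12, edgeR). Empty replicate 1 was the highest Empty library in 9 of these 12 genes.

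Genes that respond to ERK signalling, several of which feed back on FGF receptors, moved in both directions. Of 19 tested, 9 rose, 6 fell and 4 were not called, with a median log2 fold change of 0.30. Both directions were also common over all tested genes, with 34.4% higher and 29.8% lower (median 0.11). SPRY4, a Sprouty inhibitor of receptor signalling, had 0.873, 0.881 and 0.717 FPKM in Empty and 4.30, 4.90 and 3.91 FPKM in LINC00862 (log2 fold change 2.57, adjusted p = 1.6e-06, edgeR). SPRY1 rose by 2.39, the ERK phosphatase gene DUSP6 by 1.54, and the transcription factor genes ETV4 and ETV5 by 2.58 and 1.16 on the log2 scale. CCND1, which encodes cyclin D1, rose from 15.0 ± 2.40 to 70.1 ± 12.8 FPKM (SD, n = 3 each, log2 fold change 2.40, adjusted p = 3.05e-06, edgeR).

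The largest fall in that list was that of FOSL1, an AP-1 subunit, from 57.1 ± 3.80 to 1.58 ± 0.483 FPKM (SD, n = 3 each, log2 fold change -4.98, adjusted p = 7.21e-07, edgeR). The ERK phosphatase gene DUSP5 and MYC fell by 1.46 and 1.21 on the log2 scale. PHLDA1 had 10.5 ± 1.63 and 6.78 ± 0.776 FPKM (SD, n = 3 each, log2 fold change -0.46, adjusted p = 0.0172, edgeR), a call that was lost in 4 of 13 other fits, 2 of them without LINC00862 replicate 2 or 3. SPRY2 (4.05 and 4.39 FPKM) and the immediate early gene EGR1 (46.2 and 39.6 FPKM) were not called (adjusted p = 0.151 and 0.86, edgeR).

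Several genes of the bile acid axis on which FGF19 acts in liver were at or near 0 counts in both groups. Of 12 listed, 10 were in the table and 5 were tested. Of these 5, 3 rose, 1 fell and 1 was not called, against 34.4% higher and 29.8% lower among all tested genes. CYP7A1, the rate-limiting enzyme of bile acid synthesis, had 4, 0 and 0 counts in Empty and 0 in each LINC00862 library, so no difference was detectable at this depth. The bile acid receptor gene NR1H4 had 0 counts in Empty and 8 in LINC00862, and NR0B2, its repressor target, had 11 and 0. FABP6, an ileal bile acid carrier and like FGF19 a target of that receptor, had 0 counts in Empty and 15.2, 10.8 and 9.96 FPKM in LINC00862, at least 880.6-fold higher (adjusted p = 1.87e-06, edgeR). NR5A2 and the transporter gene SLC51B, named after their values were seen, were at 0 in Empty and at least 160.7-fold and 39.7-fold higher. CYP27A1, an enzyme of the alternative bile acid pathway and also named after its values were seen, fell from 0.901 ± 0.0441 to 0.0492 ± 0.00921 FPKM (SD, n = 3 each, adjusted p = 1.87e-05, edgeR).

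The nearest tested genes, 2 on each side of each of the 10 genes, were compared as well. Of these 40 neighbours, 13 rose, 17 fell and 10 were not called, beside 34.4% higher and 29.8% lower over all tested genes. The median log2 fold change of the neighbours was -0.30, against 0.11 for all tested genes. Some neighbours lay far away, with PCLO 983614 bases from HGF and LINC01561 878208 bases from FGFR2. FADD and PPFIA1 lay 499274 and 566678 bases from FGF19. The 4 neighbours of HGF (AC008163, DDX43P3, CACNA2D1 and PCLO) all rose, and the 4 neighbours of FGFR2 (LINC01561, WDR11, ATE1 and NSMCE4A) all fell. Whether neighbours share regulation was not tested. Mean levels of the HGF neighbours were low, at most 0.00506 FPKM in Empty and at most 1.70 FPKM in LINC00862. LINC01561 was low too, at 0.28 FPKM in Empty and 0 in LINC00862. Beside FGF19, CCND1, LTO1 and PPFIA1 rose by 2.40, 1.13 and 0.74 on the log2 scale, and FADD had a log2 fold change of -0.35 and was not called (adjusted p = 0.131, edgeR). Beside FGF1, which fell, SPRY4, SPRY4-AS1 and ARHGAP26 rose and NR3C1 fell. Beside MET, CAV1 and CAV2, which encode caveolins, fell by 6.07 and 4.22 on the log2 scale, with CAV1 at 108.2 FPKM in Empty and 1.42 FPKM in LINC00862, while CAPZA2 was not called (adjusted p = 0.26, edgeR) and ST7-AS1 rose.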

How the data were processed

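RNA from HCCLM3 cells was selected with oligo(dT), and strand-marked libraries with unique molecular identifiers were sequenced by the authors as read pairs. The submitters' processing notes name cutadapt 1.9, HISAT2 2.0.4, UMI-tools, StringTie 1.3.4d, DESeq2, edgeR and hg38. The deposited table holds read counts per gene, not normalized, and FPKM values made by the authors. The strand setting of the counting is not given in the sources used here.

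The counts were fitted with edgeR 4.0.16 in R 4.3.3 (TMM scaling, default expression filter, quasi-likelihood test, Benjamini-Hochberg adjustment over all tested genes, threshold 0.05). FPKM gave levels and shares. Folds against 0 counts were computed against 3 counts over the group and cover counting error only. DESeq2 1.42.0, limma 3.58.1 on log2(FPKM + 1) and log2(FPKM + 0.1), other scalings, no filter, the replicate block, a test against a fold change of 2, a threshold of 0.01 and leaving out each library were alternatives. The fits were also run on simulated data with fewer and smaller changes than those seen here. That run does not cover large folds at low counts.

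Named were all 10 genes, up to 4 rises and 4 falls per list with a mean of at least 1 FPKM in a group, list genes tied directly to these 10, the nearest neighbours and the genes of most similar pattern. A gene that the rule names in the HGF and MET list is not reported here. Genes and lists were chosen with earlier results of these data known.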

Additional observations from a re-analysis of the deposited data

How the results depend on the processing

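For the 10 genes, 121 of 130 values from the other fits kept their direction and their side of the threshold, and 0 reversed. MET was no longer called with library size scaling (0.40), without the filter (0.55), or with limma on log2(FPKM + 1) (0.40) and log2(FPKM + 0.1) (0.42), and leaving out single libraries gave 0.43 to 0.82 on the log2 scale. The log2 fold change of KLB was -2.21 with the replicate block and no longer called (adjusted p = 0.0614, edgeR). Same-numbered libraries deviated with correlations of -0.109, -0.112 and -0.0831. Differently numbered libraries were not compared, so these values cannot tell whether the numbers pair the libraries. The block gave 6542 genes higher and 5556 lower instead of 7145 and 6176. A test against a fold change of 2 called 3204 genes lower and 4806 higher, so that 60.0% of its calls were higher against 53.6%. Scaling by library size alone put that share at 48.5%, and the upper quartile at 60.4%. By summed counts in place of FPKM, the difference in share was -14.58 instead of -27.6 points for FGFR2 and 27.74 instead of 33.73 points for FGFR3. Adaptor genes called higher numbered 2 to 5 when single libraries were left out, with 5 without Empty replicate 1. FRS2 reversed with upper quartile scaling (0.00061) and without Empty replicate 1, being called in neither, and leaving out single libraries gave -0.39 to 0.14. Scaling moved the median log2 fold change of all genes from 0.11 to 0.16 (DESeq2), 0.32 (upper quartile) and -0.05 (library size). For 42 other named genes, 522 of 546 values stayed, 17 lost and 5 gained a call, and 2 reversed. The cause was not tested. Low counts limit KLB (at most 53 per library) and FGF19 (36). In LINC00862 they also limit FGFR1 (50), FGFR2 (20), FGFR3 (46), FGFR4 (48), FGF2 (54) and FGF1 (14).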

Other observations

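For each of the 10 genes, the tested gene with the most similar pattern was sought, by the root mean square difference of mean-centred log2(CPM + 1) over the 6 libraries. For FGFR1 it was IRX2 (difference 0.142), for FGFR2 CLMP (0.0947), for FGF2 RGS4 (0.0759) and for FGF1 GBP1 (0.0805). RGS4 fell from 11.6 to 0.106 FPKM and IRX2 from 15.8 to 0.0434 FPKM. For MET it was CDK6 (0.0511), at 3.94 and 4.90 FPKM in Empty and LINC00862. FGFR1 had 3 genes within a difference of 0.2, FGFR2 22 and FGF2 20, whereas MET had 616 and FGF19 2723. The nearest genes of FGFR3, FGFR4, KLB, FGF19 and HGF were YWHAQ, SGSH, SRSF9P1, AC010491 and AC024337, at differences of 0.0436, 0.0452, 0.0521, 0.0204 and 0.0365. These are descriptions over 2 groups, and a gene that separates the groups by a like amount scores as near.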
